A study of Bos taurus with 10 samples.

Results

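The genes described here attach ubiquitin to proteins or take it off again. They were chosen by name: every gene whose probe sets carried a single human symbol starting with UBE2 (E2 conjugating enzymes, leaving out UBE2C), UBE3 (HECT-type ligases), USP and a digit (ubiquitin-specific proteases), CUL and a digit (cullins) or FBX (F-box proteins). This gave 71 genes, read by 97 probe sets, out of 6732 genes with values: 17 E2 enzymes, 3 UBE3 ligases, 4 cullins, 19 F-box proteins and 28 ubiquitin-specific proteases. The classes follow the symbols alone, and the last includes USP32P2, which has no entry in the bovine gene table used here. The brightest probe set, by mean over the 10 arrays, stood for each gene. A further 5 probe sets listed a gene of these families among several symbols and were not used.

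The embryos were bovine IVF embryos (fertilised in vitro), whose pooled total RNA was read on 3 arrays. Total RNA of 7 adult bovine tissues was read on 1 array each: spleen, muscle, lung, liver, kidney, heart and brain. All of it was hybridised across species to a human array, so a dim probe set may mean a poor match to the bovine sequence as well as little RNA. The labels used here give no breed, sex or embryo stage, no age beyond adult, and do not say whether the 3 embryo arrays are separate pools. The p-values below therefore measure the spread between these arrays, and the number of arrays limits the precision. For embryos that spread may be technical. For tissues it lies between 7 different tissues with 1 array each, not between replicates of a tissue.

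Ubiquitin is a small protein that is passed from an activating enzyme (E1) to a conjugating enzyme (E2) and, with the help of a ligase (E3), onto a target protein. Chains of ubiquitin send many targets to the proteasome, while other chains and single ubiquitins act as signals. HECT ligases take up the ubiquitin themselves before handing it on, whereas a cullin is a scaffold that holds an E2 through the RING protein RBX1 at one end and a target receptor at the other. F-box proteins are such receptors, and deubiquitinases, of which the ubiquitin-specific proteases are the largest family, cut ubiquitin off. In early embryos this system is known for clearing maternal proteins and for driving the cell cycle.

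Some facts of the whole series bear on these values. Median deposited intensities ran from 99.2 to 221, and the arrays were quantile normalised; all intensities below are normalised ones. The third embryo array stood apart: 190 of the 6732 genes (2.82%) read at least 2-fold higher there than on both other embryo arrays. In 56 of those 190 (29.5%) lung and muscle were the 2 brightest tissues, against 3.16% of all genes. Among tissue markers, 9 of 10 for liver, 9 of 10 for muscle, 7 of 8 for heart and 6 of 9 for brain were highest on their own array, but only 3 of 6 for lung and 1 of 5 for kidney were. Just 2 spleen markers had values and neither was highest in spleen, so that label could not be checked with this list. In embryos all 9 embryo markers were highest. Some markers of other lists were brightest there too. HBB, for blood, read 622, 413 and 508 in embryos and at most 286 in tissues. ALB, for liver, read 129, 195 and 212 against at most 109, and SLC22A8, for kidney, 715.5, 617 and 584 against at most 68.8. Summed over 4 blood markers, the signal ran from 528 to 736 on the embryo arrays and from 199 to 780 on the tissue arrays. The summed signal of 5 cumulus and granulosa markers ran from 319.7 to 724 on the embryo arrays and from 267.5 to 712 on the tissue arrays. The sum of 724, above that of every tissue, was that of the third embryo array.

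Embryos were compared with adult tissues, as in the series title. In this comparison 8 ubiquitin genes rose in embryos and none fell. They were the E2 enzymes UBE2E1, UBE2G2, UBE2S and UBE2K, the cullin CUL3, the F-box protein FBXL14, and the ubiquitin-specific proteases USP24 and USP9X. All 3 embryo values of each lay above all 7 tissues, as they did for UBE2NL and USP5, which did not pass; these 10 genes compare with 11.1% of all tested genes. All 3 lay below every tissue for UBE2G1 and FBXO2, against 6.76% of all tested genes, and neither passed. A gene was tested when its probe set exceeded the array's median on at least 3 of the 10 arrays, which 52 of the 71 genes did, and passed at a limma adjusted p under 0.05. The 8 genes are 15.4% of the 52, where 7.89% of all 4691 tested genes rose. The share that fell was 3.22% of all tested genes and 0 of 52 here. At an unadjusted limma p under 0.05, 6 of the 52 were lower and 12 higher. Of all 4691 tested genes, 488 were lower and 734 higher at that limit. Over the 52 genes the median log2 difference was 0.15, and over all tested genes it was 0.03. With bulk RNA, fewer cells of a type and less RNA per cell cannot be told apart.

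These calls lean on counting the embryo arrays as 3 samples. With the embryo arrays averaged into 1 sample, UBE2G2 alone passed (limma adjusted p = 0.0474), where 0.895% of all tested genes rose and 0.0640% fell. UBE2G2 was lost as well (limma adjusted p = 0.166) when, in addition, dim probe sets were filtered on the mean of embryos or of tissues, an alternative chosen after seeing the data. Without the first embryo array, or without the second, 4 of the 8 passed, namely UBE2E1, UBE2G2, UBE2S and FBXL14, and the share of all tested genes that rose was 3.73% and 3.33%. UBE2G2, UBE2S and USP24 exceeded the median on the 3 embryo arrays and on no tissue array. They were thus tested only because they are bright in embryos. Neither the count of 8 nor that of 12 before adjustment is support for a rise of these families.

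**Figure D1:**
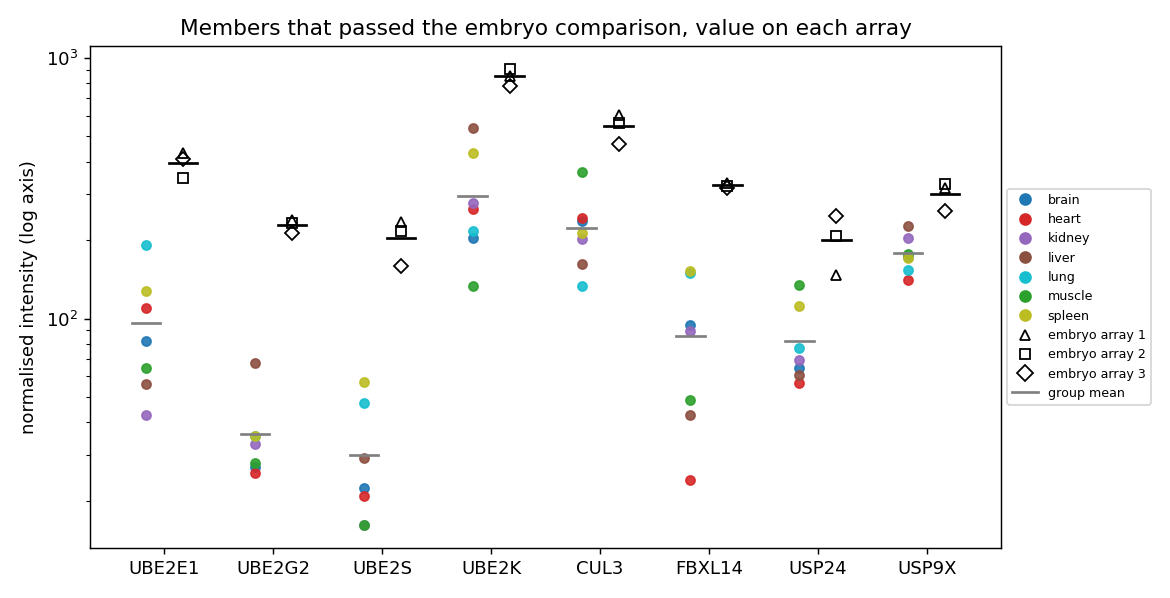
Normalised intensity (log axis) of the 8 genes that rose in embryos, with filled points for the 7 tissues, open symbols for the 3 embryo arrays and lines for group means. All 3 embryo values lie above every tissue in each gene, and the gap is narrowest for USP9X, USP24 and CUL3.

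Of the 15 E2 enzymes tested, 4 rose, none fell and 11 did not pass, with a median log2 difference of 0.50. Over all tested genes 7.89% rose and the median was 0.03, to be set beside each class below. UBE2G2 and UBE2S were tested only because they are bright in embryos, so the count and median are not support for a rise of the class. UBE2E1, an E2 with an extra stretch in front of its catalytic core, read 431, 348 and 408 in the 3 embryo arrays. In tissues it ran from 42.6 in kidney through a median of 82.2 to 191.5 in lung. No tissue came near the lowest embryo array, and the log2 difference was 1.53 ± 0.25 (SE, n = 3 and 7, limma adjusted p = 0.00209). All differences are of log2(intensity + 70.85); the added offset shrinks those of dim probe sets.

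UBE2G2, an E2 that marks misfolded proteins of the endoplasmic reticulum for degradation, read 239, 233 and 212 in embryos. Its tissue values lay between 25.6 in heart and 67.4 in liver, with a median of 33.1. The embryo arrays agreed closely and every tissue was dim, giving a log2 difference of 1.49 ± 0.22 (SE, n = 3 and 7, limma adjusted p = 0.00122). UBE2G1, a related E2, differed in the other direction without passing. It read 300.5, 193 and 173 in embryos and from 324 in liver to 1248 in muscle, with a tissue median of 491. All 3 embryo values of UBE2G1 lay below all tissues, at -1.07 ± 0.34 (SE, n = 3 and 7, limma adjusted p = 0.0629), and its other probe set averaged 89.9 over embryo arrays and 266 over tissues. It passed without the liver array, without the muscle array and under the stricter filter on dim probe sets.

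UBE2S, which lengthens the ubiquitin chains begun on targets of the anaphase-promoting complex in mitosis, read 234, 217 and 159 in embryos. Tissues ran from 16.2 in kidney and muscle through a median of 22.4 to 57.2 in spleen. The third embryo array was the lowest of the embryo arrays but still well above spleen, and the log2 difference was 1.45 ± 0.25 (SE, n = 3 and 7, limma adjusted p = 0.00301). UBE2K, an E2 able to build chains by itself and known for binding huntingtin, exceeded the array median in every tissue but muscle. It read 854, 909 and 783.5 in embryos and from 133 in muscle through 263.5 to 541 in liver. Liver and spleen came closest, and the log2 difference was 1.41 ± 0.31 (SE, n = 3 and 7, limma adjusted p = 0.0120). The other UBE2K probe set was too dim to be tested, at 72.2 in embryos and 133.5 in tissues, where brain read 332. Without the first or without the second embryo array UBE2K no longer passed (limma adjusted p = 0.0600 and 0.0737).

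The E2 enzymes that did not pass fell into several patterns. UBE2N, the enzyme that makes signalling chains together with a UBE2V partner, read 372, 471 and 249 in embryos and 176.5 to 342 in tissues, with a median of 259. The value on the third embryo array lay inside the tissue range, and the log2 difference was 0.41 (limma adjusted p = 0.266). UBE2NL, a human copy of UBE2N with no entry in the bovine gene table used here, read 391, 561 and 375 in embryos against at most 370 in brain, a log2 difference of 0.56 that did not pass (limma adjusted p = 0.136). The probes of the 2 genes may read the same bovine RNA, so both are uncertain. UBE2D4, of the family of general-purpose E2 enzymes, differed by 0.69 (limma adjusted p = 0.120), and its 3 other probe sets by 0.24, -0.10 and -0.28. UBE2H, UBE2J1 and UBE2Z, which differed by 0.02, 0.00 and -0.04, showed the smallest differences. UBE2H was also the most even gene over tissues, from 440 in lung to 567 in kidney. UBE2L6, the E2 of the ubiquitin relative ISG15, and UBE2V2 were too dim to be tested, at 96.9 and 137 in embryos and 103 and 132 in tissues.

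None of the UBE3 ligases rose or fell, and only 1 of the 3 could be tested. UBE3A, the ligase lost in Angelman syndrome, read 106, 92.3 and 182 in embryos and 87.8 to 415 in tissues, with a median of 127. Muscle and heart were the brightest tissues and the embryos lay within the tissue range, at -0.25 ± 0.33 (SE, n = 3 and 7, limma adjusted p = 0.666). Another UBE3A probe set differed by 0.28, and the third one, too dim to be tested, read 484 in liver and at most 22.0 in any other tissue. UBE3B read 46.7 in embryos and 32.0 to 120 in 6 tissues, but 726 in liver. Its other probe set did not share this, with 39.6 in liver, its lowest tissue. UBE3C likewise was brightest in liver, at 386 against at most 161 elsewhere among tissues and 122 in embryos.

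CUL3 rose, and the 3 other cullins measured did not pass. CUL3, the scaffold of ligases that recognise their targets through BTB-domain proteins, read 604, 564 and 469 in embryos. In tissues it ran from 134 in lung through a median of 212 to 366 in muscle. The embryo values stood apart from all tissues, with a log2 difference of 1.10 ± 0.23 (SE, n = 3 and 7, limma adjusted p = 0.00947). Without the first or without the second embryo array CUL3 did not pass (limma adjusted p = 0.0608 and 0.0611). CUL2, the scaffold that carries the VHL receptor, and CUL5, which carries SOCS-box receptors, differed by -0.59 and -0.80 (limma adjusted p = 0.139 and 0.175). CUL2 read 128 in embryos and 236 in tissues, and CUL5 69.7 and 199.6, with muscle brightest for CUL5 at 457. CUL7 read 274.5 and 272. CUL1, CUL4A and CUL4B had no values under their own symbol and were not analysed here.

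Of 12 F-box proteins tested FBXL14 rose, none fell and 11 did not pass, with a median log2 difference of 0.00. FBXL14, a receptor known for turning over SNAI-family repressors, read 332, 324 and 317 in embryos. In tissues it ran from 24.1 in heart through 89.4 in kidney, the median, to 152 in spleen. The spread between the embryo arrays was small next to the distance from spleen and lung, and the log2 difference was 1.40 ± 0.28 (SE, n = 3 and 7, limma adjusted p = 0.00661). FBXO2, a receptor for glycoproteins, lay below every tissue on all embryo arrays. It read 144, 91.3 and 102 in embryos and 154 to 437 in tissues, and did not pass (-0.67, limma adjusted p = 0.0960). FBXL18 and FBXW11, the latter a receptor of beta-catenin, had the largest negative differences of the class, at -0.93 and -0.91 (limma adjusted p = 0.156 and 0.116). FBXO7, linked to mitophagy, read 165.5, 209 and 348 in embryos and 154 to 220.0 in tissues, and differed by 0.28 (limma adjusted p = 0.369). Only the third embryo array lay above all tissues there. FBXW7, a receptor of cyclin E and MYC, was too dim to be tested outside brain and is described with the tissues.

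Of 20 ubiquitin-specific proteases tested, 2 rose, none fell and 18 did not pass, with a median log2 difference of 0.22. The 2 include USP24, tested only because it is bright in embryos, so the count is not support for a rise of the class. USP24, a very large deubiquitinase, read 147, 207 and 247 in embryos and 56.6 in heart to 135 in muscle, with a tissue median of 69.5. The first embryo array lay close to muscle, and the log2 difference was 0.83 ± 0.23 (SE, n = 3 and 7, limma adjusted p = 0.0343). USP9X, a large X-linked deubiquitinase known to be needed for embryo development, read 316, 329 and 258 in embryos. Its tissue values were among the most even of all, from 141 in heart through a median of 172 to 226 in liver. The lowest embryo array lay close above liver, and the log2 difference was small, at 0.58 ± 0.16 (SE, n = 3 and 7, limma adjusted p = 0.0374).

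These 2 calls were the least secure. USP9X did not pass with the arrays scaled to a common median (limma adjusted p = 0.0670), without a filter on dim probe sets (0.0542), or without any 1 embryo array (0.0701 to 0.194). It was lost as well without brain, heart, lung, muscle or spleen (0.0545, 0.0615, 0.0624, 0.0528 and 0.0551). USP24 was lost when any 1 embryo array was left out (0.0611, 0.165 and 0.169 for the arrays in order), without kidney (0.0518) or without an offset (0.0551). USP9Y, the Y-linked copy of USP9X, was too dim to be tested, and reads of the 2 copies on shared probes cannot be told apart.

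USP5, which takes apart free ubiquitin chains, lay above every tissue on all embryo arrays without passing. It read 513, 597 and 392 in embryos and 146 to 354 in tissues (0.78, limma adjusted p = 0.0662). USP14, the deubiquitinase that sits on the proteasome, read 333, 303 and 331 in embryos and 174 to 327 in tissues, where muscle overlapped the embryos (0.34, limma adjusted p = 0.264). USP22, which removes ubiquitin from histones in the SAGA complex, read 406, 331 and 286 in embryos and 241 to 464 in tissues, and differed by -0.16 (limma adjusted p = 0.667). The sign of that difference turned with the values as deposited, to 0.03. USP7, which stabilises MDM2 and p53, read 431, 458 and 484 in embryos and 356 to 842 in tissues (-0.27, limma adjusted p = 0.491).

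**Figure D2:**
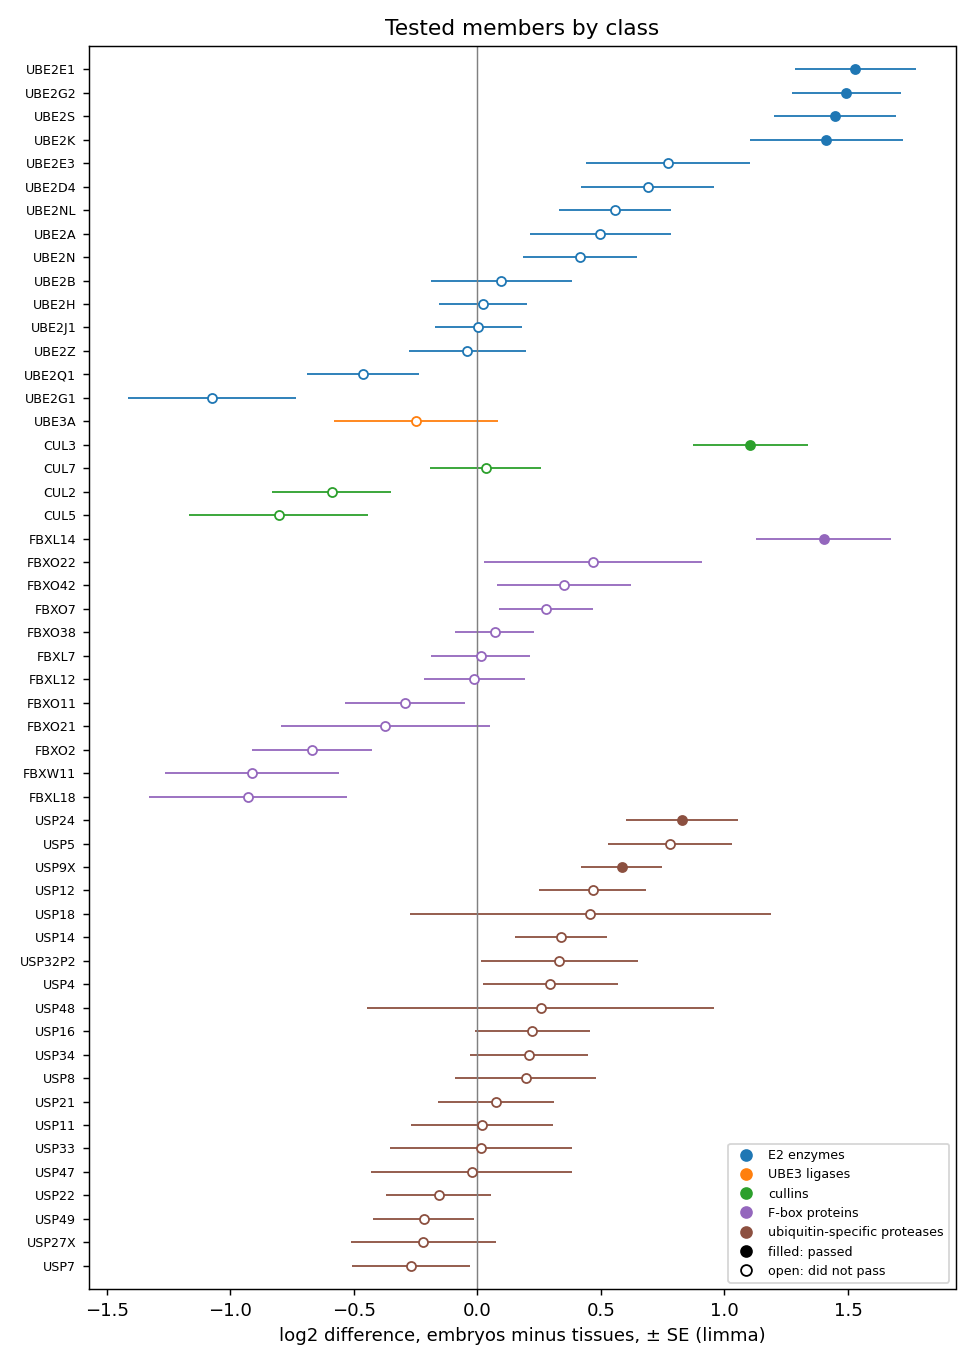
Difference between embryos and tissues for the 52 genes tested, in log2 units with the limma SE, coloured by class and filled where the gene passed. The 8 filled points lie between 0.58 and 1.53, and the lowest open point is UBE2G1 at -1.07.

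Where a gene had several probe sets, the choice among them mattered. Of the 70 tested probe sets of these families, 12 rose and 2 fell, where 600 and 218 of all 6775 tested probe sets did. Among the 12, those of UBE2G2, UBE2S and USP24 and a UBE2N probe set were tested only because they are bright in embryos. In all, 4 of the rises and both falls lay in probe sets that did not represent their gene. The genes concerned, named after their values were seen apart from UBE2N and USP7, are UBE2B, UBE2N, USP4, USP7 and USP48. UBE2B, the mammalian RAD6 enzyme of DNA damage tolerance, did not pass in its representative probe set, at 349 in embryos and 339 in tissues (0.10, limma adjusted p = 0.861). Its other 2 probe sets had embryo means of 97.8 and 11.0 where tissues averaged 386 and 229, and fell by 1.34 and 1.70 (limma adjusted p = 0.0233 and 0.0181).

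USP48 showed the reverse. Its representative probe set read 265, 317 and 840 in embryos, with lung at 1891 and muscle at 1008, and did not pass (0.26, limma adjusted p = 0.850). Its other probe set read 636, 626 and 545 in embryos and 70.1 to 251 in tissues, and rose by 1.65 (limma adjusted p = 0.00120). The second USP4 probe set rose by 1.32 (limma adjusted p = 0.0376), with 393 in embryos and 135 in tissues, among which liver read 389. The second USP7 probe set, with means of 426 over embryo arrays and 222 over tissues, rose by 0.76 (limma adjusted p = 0.0143), while the third one differed by 0.51 without passing. A UBE2N probe set with 247 in embryos and 117 in tissues rose by 0.74 (limma adjusted p = 0.0154), and another differed by -0.31. The UBE2N probe set that rose exceeded the array median on the embryo arrays and on no tissue array. It was thus tested only because it is bright in embryos. Which transcript or stretch of the gene each probe set reads in cattle was not examined.

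**Figure D3:**
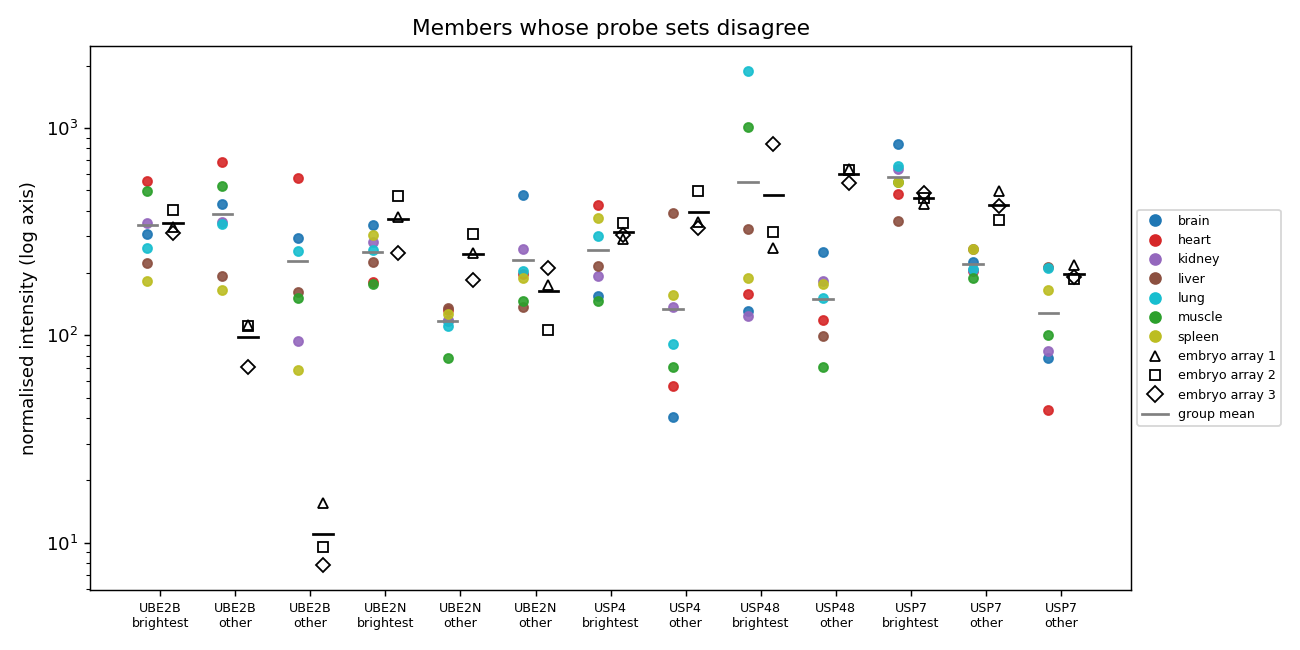
Normalised intensity (log axis) on each array for all probe sets of 5 genes, the brightest first, with filled points for tissues and open symbols for embryo arrays. The other probe sets of UBE2B lie below the tissues in embryos, and that of USP48 lies above them, while the brightest ones overlap.

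Set against single tissues, the genes that were at least 2-fold higher in embryos numbered 10 of 52 for heart, 9 for kidney, 8 each for brain and liver, 6 each for muscle and spleen and 5 for lung. As shares these are 19.2%, 17.3%, 15.4%, 15.4%, 11.5%, 11.5% and 9.62%, and the shares of all tested genes were 11.9%, 8.02%, 11.4%, 13.5%, 13.5%, 6.69% and 8.27%. Genes at least 2-fold lower in embryos were most often counted against muscle, with 7 of 52 (13.5%, and 8.80% of all tested genes), and least often against liver, with 1 (1.92%, and 6.50%). Against brain there were 5 (9.25% of all tested genes) and against heart 3 (10.4%). Kidney, lung and spleen had 2 each, where 9.55%, 8.95% and 7.65% of all tested genes were lower. With 1 array per tissue these counts carry no test, and all 7 share the embryo arrays. UBE2G2 and UBE2S, tested only because they are bright in embryos, are in the higher counts for all 7 tissues. Their lowest log2 differences were 1.11 and 1.09. USP24, tested for the same reason, is in the higher counts for heart and liver (1.07 and 1.03). The higher counts are thus not support for a rise. With the values as deposited the higher counts for heart, liver and lung were 15, 18 and 10 of 52 (28.8%, 34.6% and 19.2%), and the shares of all tested genes were larger too, at 20.4%, 26.5% and 11.9%.

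**Figure D4:**
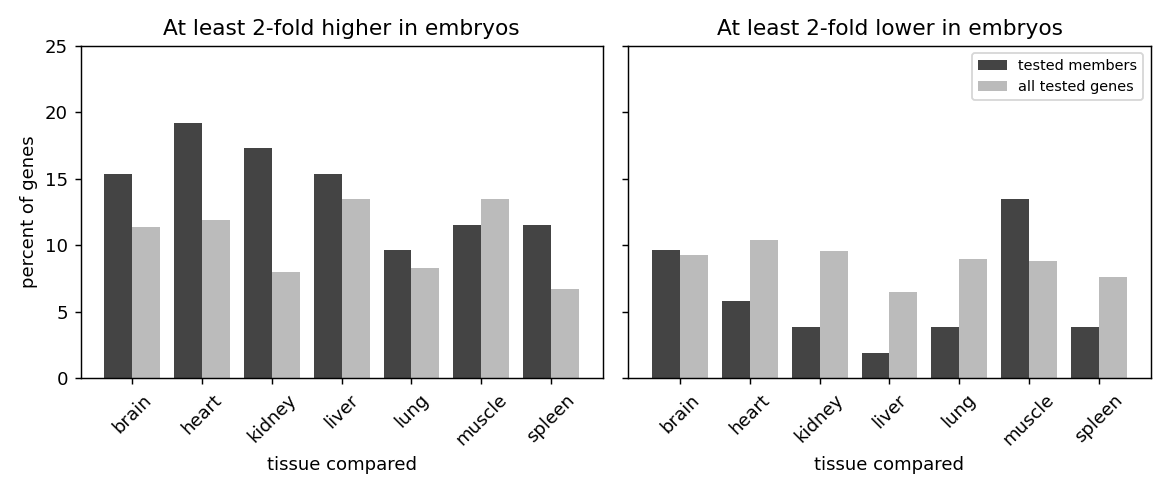
Percent of genes at least 2-fold higher (left) or lower (right) in the mean of the embryo arrays than in each tissue, for the 52 tested ubiquitin genes (dark bars) and all 4691 tested genes (light bars). The dark bar for higher genes is tallest for heart, at 19.2%, and that for lower genes is tallest for muscle, at 13.5%. The bars for higher genes include genes tested only because they are bright in embryos.

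Variation among adult tissues was close to that of other genes. The brightest tissue exceeded the dimmest by a median of 2.14-fold over the 52 tested genes, and by 2.29-fold over all tested genes (fold of intensity + 70.85), and exceeded 2-fold in 28 of the 52 (53.8%) and in 62.1% of all tested genes. UBE2H, FBXO7, FBXO38 and USP9X varied least, at 1.25, 1.29, 1.32 and 1.40-fold, and USP48 and USP18 most, at 10.1 and 9.67-fold. Brain was the brightest tissue for 14 of the 52 (26.9%, and 13.1% of all tested genes), muscle for 11 (21.2%, and 15.6%) and lung for 3 (5.77%, and 11.9%). With the values as deposited brain was brightest for 24, where 29.8% of all tested genes were brightest in brain. With arrays at a common median it was brightest for 10 (19.2%, and 11.0% of all tested genes). Lung was brightest for 8 at a common median (15.4%, and 14.8% of all tested genes).

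Few genes belonged to a single tissue. Of the 52 tested, 2 were at least 2-fold brighter in 1 tissue than in every other, where 5.56% of all tested genes were. Of the 71 genes, 6 were, where 17.5% of all 6732 genes with values were. UBE2E3, an E2 close to UBE2E1, read 464 in brain and 191 in kidney, the next tissue. Embryos read 323, 408 and 284, between brain and the other tissues, and the difference of 0.77 did not pass (limma adjusted p = 0.156), though it did without the brain array (0.97, limma adjusted p = 0.0186). FBXO22, a receptor known for histone demethylases of the KDM4 family, read 1003 in heart and 382.5 in liver, against 401, 375 and 390 in embryos.

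The other 4 were too dim elsewhere to be tested. FBXW7 read 352 in brain, at most 48.2 in any other tissue and 56.7, 52.0 and 44.7 in embryos. USP1, the deubiquitinase of the Fanconi anaemia pathway, read 243 in heart, 79.1 in muscle and 3.66, 25.9 and 16.5 in embryos. FBXO24 read 2580 in liver, at most 22.2 in the other tissues and 20.0, 0.920 and 3.08 in embryos. UBE3B, given above, was the fourth. USP25 and USP13 were shared by heart and muscle, with 520 and 430 for USP25 and 227 and 369 for USP13. The highest other tissue read 105 and 34.2, and the embryo means were 82.2 and 19.9.

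**Figure D5:**
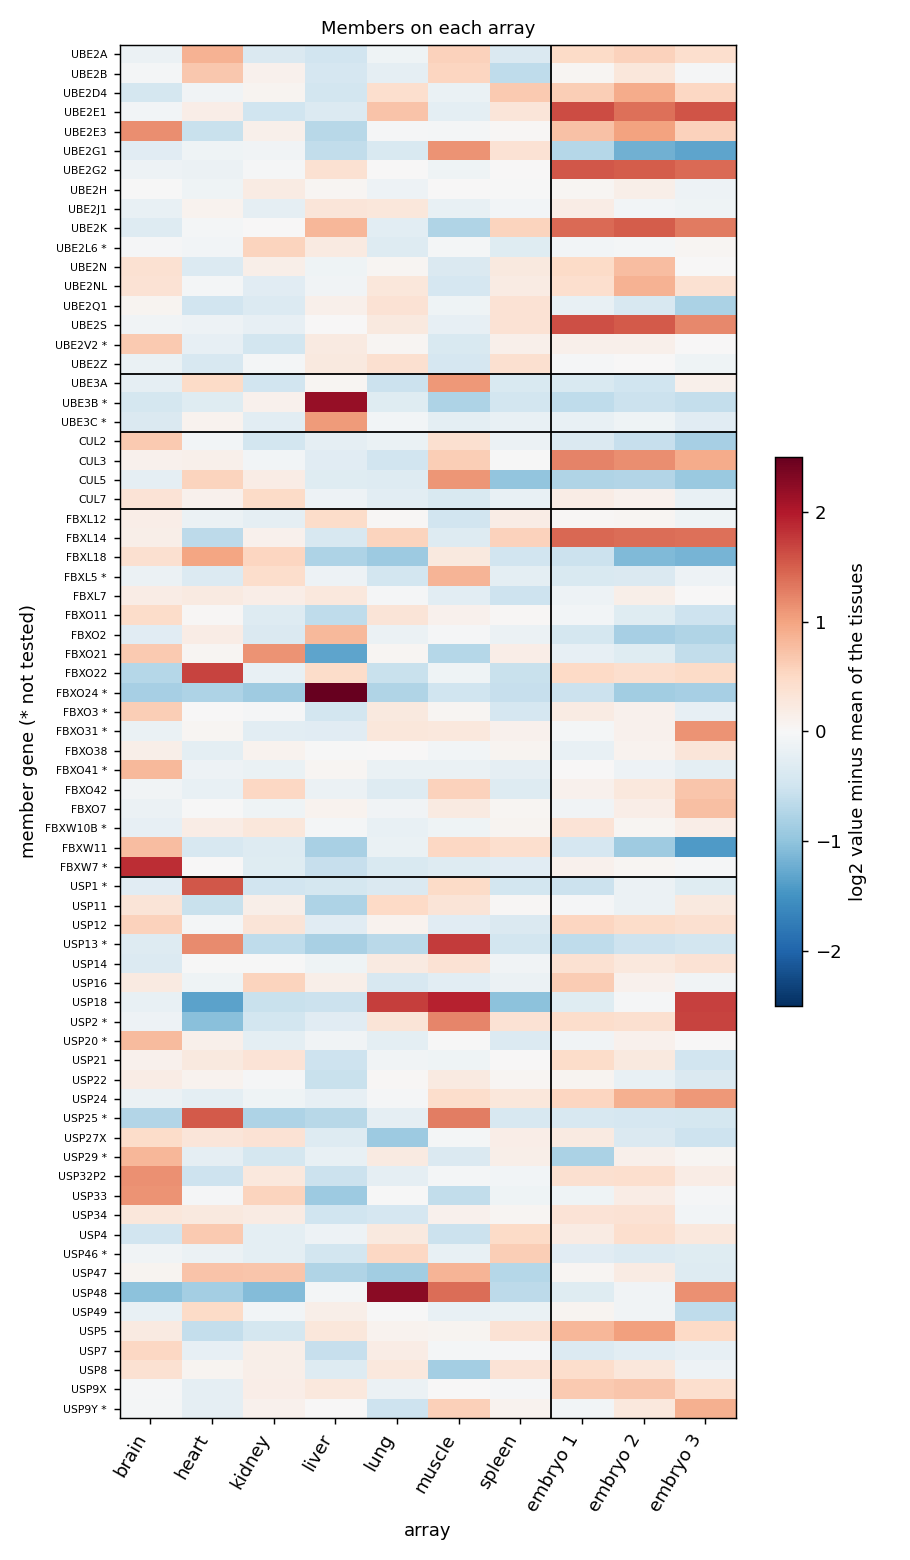
All 71 genes (rows, by class, with an asterisk where not tested) on the 10 arrays (columns), coloured by log2(intensity + 70.85) minus the mean of the 7 tissues, with the colour scale capped at both ends. The 3 embryo columns are red for the 8 genes that rose, and single dark cells mark FBXO24 and UBE3B in liver, FBXW7 in brain and FBXO22 in heart.

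On the third embryo array 4 of the 71 genes read at least 2-fold above both other embryo arrays (2.82% of all genes with values), namely FBXO31, USP2, USP18 and USP48. USP18, which removes ISG15 from proteins, read 184, 237 and 968 on the embryo arrays, with muscle at 1133, lung at 975 and the other tissues at no more than 207. USP2 read 140, 135 and 429, with muscle brightest at 293, and FBXO31 read 99.9, 118 and 310. USP18, USP48 and FBXO31 had the third embryo array, lung and muscle in common, which places them among the 56 genes counted above. For FBXO31 lung and muscle read 144 and 139, and spleen, the next tissue, 117. The part of that array in the values of these genes was not tested. Of the 8 genes that rose, USP24 was highest on the third embryo array, UBE2E1 lay between the other arrays there, and the other 6 were lowest there.

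The rest of the pathway was taken from lists of 210 symbols, of which 114 had values and 87 could be tested. Of those 87, 6 rose, 3 fell and 78 did not pass, with a median log2 difference of -0.02. Shares of 7.89% and 3.22% of all tested genes rose and fell. None of the 9 passed with averaged embryo arrays. CKS1B and HERC2, given below, were tested only because they are bright in embryos, so the count of 6 is not support for a rise.

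Among the partners of cullins 4 of 18 rose and 1 fell, where 7.89% and 3.22% of all tested genes did. RBX1, the RING protein that binds cullins and recruits the E2, read 370.0, 356 and 367 in embryos and 66.8 to 175 in tissues, a log2 difference of 1.17 ± 0.20 (SE, n = 3 and 7, limma adjusted p = 0.00298). CKS1B, a cofactor of the F-box protein SKP2 and of cyclin-dependent kinases, rose by 1.16 (limma adjusted p = 0.00825), from 60.2 in tissues to 224 in embryos. On no tissue array did CKS1B exceed the array median of 145.7, with at most 82.7 in heart. It was thus tested only because it is bright in embryos, so the count of 4 is not support for a rise of these partners. Among the other partners, ELOC, the elongin that links receptors to CUL2 and CUL5, rose by 0.83 (limma adjusted p = 0.0361), and COPS7A, a subunit of the signalosome that removes NEDD8 from cullins, by 0.63 (0.0494). DCAF8, a receptor of CUL4 ligases, read 159, 146 and 105 in embryos and 353 to 635 in tissues, and fell by 1.28 (limma adjusted p = 0.00203).

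Other ligases passed in 4 of 51 cases. HERC2 and UBR4, both giant ligases, rose by 0.92 and 0.60 (limma adjusted p = 0.0142 and 0.0478), and RNF130 and RNF11 fell by 1.07 and 1.06 (limma adjusted p = 0.0494 and 0.0158). HERC2 read 184 in embryos and 63.9 in tissues, and RNF11 81.6 and 257.5. HERC2 exceeded the array median on the embryo arrays and on no tissue array, where it read at most 87.5, in lung. It was thus tested only because it is bright in embryos. The E1 enzymes (3 tested), ubiquitin and its relatives (6 tested) and the other deubiquitinases (9 tested) held no gene that passed. UBA1, the main E1, read 624 in embryos and 423 in tissues.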

How the data were processed

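The deposited table holds linear intensity values, 1 for each array in every probe set. Software, background correction, scaling and genome build: not given in the sources used here; no coordinates are printed. Of 22283 probe sets, 10219 had values, and 33 of these were controls. Trimmed means (2%) differed 1.90-fold between arrays, above the limit of 1.5, so the arrays were quantile normalised, then taken as log2(intensity + 70.85), where the offset is the arrays' median 25th percentile. Tests covered the 6775 probe sets that exceeded the array median on 3 or more arrays, with limma 3.58.1 in R 4.3.3 (trend and robust eBayes, two-sided, Benjamini-Hochberg adjustment over all tested probe sets), 3 embryo against 7 tissue arrays. The fit was tested on simulated data. Symbols came from the platform annotation, and 69 of 71 are in the bovine RefSeq table (ARS-UCD2.0), all but UBE2NL and USP32P2. Sequences were not used here.

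The members and lists were chosen with earlier results of these data known. Genes named followed a rule: per class up to 4 rises and 4 falls past the threshold, or else the largest difference; a fixed set of 19; up to 3 per tissue at least 2-fold above every other tissue; up to 2 called each way per pathway list, except that all 4 rises among cullin partners are given. Further genes were named after their values were seen, as those outside the other range, with disagreeing probe sets or near the threshold. Alternatives covered normalisation, offset, filter, eBayes settings, averaged embryo arrays, probe set choice, leaving out each array and a 2-fold limit. Figures used matplotlib 3.10.9 in Python 3.11.15.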

Additional observations from a re-analysis of the deposited data

Results flagged for a closer look

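In 5 of 20 named genes 1 tissue array stood apart from the other 6, judged by its gap to the nearest tissue divided by the range of the 7 tissues on the log2 scale. FBXO24, FBXW7 and UBE3B were named for being at least 2-fold brighter in 1 tissue, so their gaps only describe that choice. Over all 71 genes 8 stood apart in this way (11.3%), against 19.4% of all genes with values, and of the 52 tested genes 2 did (3.85%), against 7.91% of all tested genes; chance alone gives about 1 in 20. FBXO24 in liver had the largest share, 0.926 of the range, with 2580 against 22.2 in the next tissue. FBXW7 in brain had a share of 0.759, with 352 against 48.2. UBE3B in liver had 0.698, with 726 against 120, and its other probe set was not high there. UBE2G2 in liver had 0.729, although at 67.4 against 35.5 both values are dim. USP22 in liver stood apart on the low side, with a share of 0.668 and 241 against 376.5 in kidney.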

How the results depend on the processing

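The count of 8 genes higher in embryos was 5 with the filter at the 75th percentile, 1 with averaged embryo arrays, 0 with averaged embryo arrays and a filter on either group's mean (added after the data were seen; 6 higher at an unadjusted p under 0.05) and 4 to 8 with an array left out. The count of 0 lower was 1 with the 75th percentile filter (UBE2G1), 1 with the probe set of widest spread (UBE2B) and 0 to 1 with an array left out. The median difference of 0.146 was 0.322 with the values as deposited, 0.0349 with no filter and 0.334 with the 75th percentile filter. As deposited, all tested genes also shifted, from 0.03 to 0.21. With the values as deposited, 0 rather than 2 genes lay below every tissue, and 4 rather than 2 were 2-fold above every other tissue in 1 tissue; the latter count was also 4 with the widest spread. The 6 pathway genes that rose were 3 at a common median, with no filter and with the 75th percentile filter, 2 at a 2-fold limit, 0 with averaged arrays under either filter and 1 to 6 with an array left out. The lowest count came without the second embryo array, and it was 3 without kidney. The 3 that fell were 0 with averaged arrays under either filter and 1 to 3 with an array left out, with 1 without each embryo array in turn. Signs turned for UBE3A (0.0181 with the mean of all its probe sets) and UBE2N (-0.313 with the widest probe set). They also turned for USP7 (0.512 with the widest probe set, 0.334 with the mean of all its probe sets) and USP22 (0.0327 as deposited). The cause was not tested. Signal limits what can be said of the 19 genes too dim to be tested. No paired analysis was possible because each tissue has 1 array, so no tissue shares more than 1 replicate number with the embryos, and that number only names an array.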

Other observations

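Upstream of the conjugating enzymes, none of the 3 tested E1 genes passed, but 1 lay above every tissue on all embryo arrays. NAE1, a subunit of the enzyme that activates NEDD8, read 244.7, 249.6 and 246.6 in embryos and 52.2 in lung to 244.6 in brain. Brain thus all but met the embryo arrays, and the log2 difference was 0.68 (limma adjusted p = 0.0909). SAE1, a subunit of the SUMO-activating enzyme, read 404, 485 and 408 in embryos, and spleen, at 429, lay among them (0.67, limma adjusted p = 0.162). NEDD8 itself, the modifier that activates cullins, read 301, 358 and 301 in embryos and 202 to 583 in tissues.

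Some pathway genes too dim to be tested were bright in 1 tissue. ISG15, the ubiquitin relative that USP18 removes, read 587 in liver, 220 in lung, at most 70.1 in the other tissues and 9.60, 22.9 and 26.3 in embryos. The lung and muscle signal of USP18 was thus not shared by ISG15 in muscle, where it read 6.32. UCHL1, a deubiquitinase abundant in neurons, read 381 in brain and 42.7 in heart, 49.95 in kidney and less in the other tissues. MOCS3, an E1-like enzyme, read 616 in liver and at most 56.8 in any other tissue, with 63.5, 55.7 and 60.8 in embryos.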
